A study of Homo sapiens with 12 samples.

Results

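The genes described here are 9 genes that act in the repair of DNA double-strand breaks and in the signal such breaks raise: BRCA1, BRCA2, BARD1, PRKDC, XRCC5, ATM, ATR, CHEK1 and FANCD2. They were chosen by name out of 57736 genes in the count tables, and all 9 were found. HepG2 cells, a human liver cancer line, and Ls174 cells, a human colon cancer line, both labelled wild type, were cultured for 24 h without treatment (control) or with 0.7 mg/ml of HME, an extract of the red seaweed Hypnea musciformis (the study's methods state a slightly higher concentration, chosen near the IC50 of both lines). Each of the 4 groups had 3 libraries of 3′ ends of mRNA, described as biological replicates, so that every statement about a line rests on 1 culture line per tissue. Expression is given as counts per 1000000 counts of the library (CPM), after TMM scaling of all 12 libraries, as mean ± SD of 3 libraries. The counts cannot separate fewer transcripts per cell from a changed mixture of cells, for example of cells in different phases of the cycle. In each line 1 control library, HepG2 control 2 and Ls174 control 1, stood apart from the other 2 across all genes, and calls that these libraries decide are also given without them.

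A double-strand break is repaired along either of a pair of routes. In end joining, the Ku dimer, of which XRCC5 encodes the Ku80 subunit, holds the broken ends and recruits the kinase DNA-PKcs, the product of PRKDC. In homologous recombination, which copies the sister chromatid and is used mainly in S and G2 phase, the BRCA1-BARD1 ubiquitin ligase promotes resection and BRCA2 acts after it, while FANCD2, the central protein of the Fanconi anaemia pathway, is needed at crosslinks and stalled forks. ATM answers to broken ends and ATR to single-stranded DNA, and ATR activates the checkpoint kinase CHEK1. Transcripts of many homologous recombination genes are made in late G1 and S phase under E2F factors.

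Since the libraries hold only transcript ends, the counts of a gene come from few places. In GRCh37, the build of the tables, 89.5% of the counts of BRCA1 (ENSG00000012048) fell in 1 region on the minus strand, chr17:41196115-41197819, which holds its last coding exon and 3′ UTR. The primers designed for RT-qPCR of BRCA1 are shown because they mark the piece of the transcript that is counted here; no part is in capitals. Both lie in the same region and span 106 bases, at chr17:41196424-41196444 (forward, minus strand) and chr17:41196339-41196360 (reverse), each with 1 match on the chromosome. The 3′ edge of the amplicon is 27 bases from the annotated end of the gene.
BRCA1 forward primer: tagctgttggaaggactaggt
BRCA1 reverse primer: gcagtgttaacagcacaacatt

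The region with the most counts held 98.6% of the counts of BARD1, 94.2% of PRKDC, 99.7% of XRCC5, 97.1% of ATR and 88.1% of FANCD2, and in each of these genes it covers the 3′ UTR. ATM had 60.9% of its counts and CHEK1 69.6% in such a region. BRCA2 had 67 counts in all 12 libraries, of which 34.3% fell in its leading region, and that region is a coding exon and not the end of the transcript. The leading region of ATM overlaps C11orf65 and that of FANCD2 overlaps FANCD2OS, both on the opposite strand, and that of ATR overlaps the pseudogene EIF2AK1P1. How reads of the opposite strand were counted is not given in the sources used here, so that the values of these 3 genes may hold reads of their neighbours.

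The promoters of the 2 genes with the lowest p in HME-treated HepG2 cells among the 9 are shown with their GRCh37 positions, 250 bases before to 50 after the start of the canonical GENCODE transcript, in the direction of the gene. Capitals mark the letters of an E2F core (TTGGCGC, or else TTCCCGC, or else TTGCCGC, or else TTCGCGC, on either strand, and found here as GCGGGAA) and of a CCAAT box (CCAAT or ATTGG).
BRCA1, chr17:41277332-41277631, minus strand: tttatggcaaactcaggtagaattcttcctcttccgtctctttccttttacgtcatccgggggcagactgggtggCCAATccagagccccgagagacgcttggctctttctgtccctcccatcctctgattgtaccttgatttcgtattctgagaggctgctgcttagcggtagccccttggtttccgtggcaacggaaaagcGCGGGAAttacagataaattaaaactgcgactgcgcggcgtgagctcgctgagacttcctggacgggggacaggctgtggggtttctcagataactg
FANCD2, chr3:10067871-10068170, plus strand: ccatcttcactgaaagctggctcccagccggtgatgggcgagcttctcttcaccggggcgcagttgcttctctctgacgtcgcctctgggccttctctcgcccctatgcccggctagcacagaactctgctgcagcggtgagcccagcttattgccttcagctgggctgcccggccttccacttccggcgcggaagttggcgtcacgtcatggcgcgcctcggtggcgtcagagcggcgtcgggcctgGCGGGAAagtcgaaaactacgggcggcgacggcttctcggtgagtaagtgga

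The E2F core begins 47 bases before the start of BRCA1 and 2 bases before that of FANCD2, and the CCAAT box 175 bases before the start of BRCA1. These letters are a match and not a measured site. An E2F core was also found in BARD1, in PRKDC and, 4 times, in XRCC5, giving 5 of the 9 genes, against 17.1% of 19874 promoters of the same length. A CCAAT box was present in BRCA1 and ATM (36.0% of all promoters) and the CHR element TTTGAA in ATM alone among the 9 (11.5%). BRCA2, ATR and CHEK1 had none of these letters in the window. Of 87 other genes of break repair, listed below by role, 41 (47.1%) held an E2F core, and of 20 genes of S phase and proliferation 15 (75.0%).

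In HepG2 cells, BRCA1 was the member that differed most between HME and control. It had 34.2, 78.5 and 26.1 CPM in the 3 controls and 7.08, 9.45 and 7.17 CPM in the 3 HME libraries. Every HME library lay below every control. The log2 fold change was -2.54 (SE 0.50), a 5.81-fold lower level, with an adjusted p of 0.0252 by edgeR's quasi-likelihood test with Benjamini-Hochberg adjustment over 11343 genes. The highest control was also the smallest in depth of its group (HepG2 control 2), and without it the log2 fold change was -1.85 (SE 0.31, edgeR adjusted p = 0.00822). Leaving out any 1 HME library instead kept the log2 fold change between -2.68 and -2.44 and raised the adjusted p to between 0.0869 and 0.128 (edgeR).

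FANCD2 was measured at 21.9, 31.5 and 21.3 CPM in control and at 5.90, 10.2 and 8.36 CPM in HME-treated HepG2 cells, again with no overlap. The study's results state a slightly lower limit for the fold change than its methods, and the limit of the methods is used here. Those methods called genes at a log2 change of more than 0.58 in size together with p below 0.05 before adjustment. The methods set these thresholds on a binomial test, and here they were set on the edgeR p. With a log2 fold change of -1.59 (SE 0.38), FANCD2 passed these and missed 0.05 after adjustment (edgeR adjusted p = 0.0549). Without control 2 the value was -1.33 (SE 0.34, edgeR adjusted p = 0.0441).

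PRKDC, the kinase of end joining, had 19.0, 81.6 and 41.8 CPM in the HepG2 controls and 20.9, 6.65 and 16.7 CPM with HME. The groups overlapped, since control 1 lay below HME 1. The log2 fold change of -1.70 (SE 0.60, edgeR adjusted p = 0.143) passed the study's thresholds with all 6 libraries. Without control 2 it was -0.97 (SE 0.48, edgeR adjusted p = 0.241) and did not pass, and it did not pass without HME 2 either (-1.32, edgeR adjusted p = 0.362). HME 2 was also the only HepG2 library with many counts of mesenchymal genes, COL1A1 at 546 CPM and 0 to 6.0 CPM elsewhere in the line.

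XRCC5, the partner of PRKDC in end joining, did not pass the thresholds. Its level was 343, 66.2 and 315 CPM in control and 364, 327 and 329 CPM in HME-treated HepG2 cells. The values form a narrow band apart from control 2, and the log2 fold change was 0.53 (SE 0.50, edgeR adjusted p = 0.562) with that library and 0.12 (SE 0.22, edgeR adjusted p = 0.783) without it.

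BARD1, the partner of BRCA1, stood at 37.9, 24.1 and 39.0 CPM in control and at 33.1, 13.7 and 16.1 CPM with HME in HepG2 cells. HME 1 lay among the controls, and the log2 fold change of -0.67 (SE 0.40) had an edgeR adjusted p of 0.350. BRCA2 was near the limit of the measurement, with 12, 7 and 7 counts in the HepG2 controls and 2, 2 and 3 counts in the HME libraries, where 3 counts were taken as the floor. It did not pass the filter on low counts in either line and was not tested in the main fits.

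Of the 3 checkpoint kinases, none passed in HepG2 cells. ATM had 24.6, 28.4 and 16.9 CPM in control and 12.6, 20.3 and 9.56 CPM with HME (log2 fold change -0.69, SE 0.40, edgeR adjusted p = 0.330). ATR had 13.1, 2.47 and 6.43 CPM in control and 11.4, 6.30 and 1.79 CPM with HME (-0.17, SE 0.67, edgeR adjusted p = 0.904), a spread wider than any difference. CHEK1 had 22.7, 32.8 and 22.5 CPM in control and 20.5, 22.4 and 19.1 CPM with HME (-0.32, SE 0.33, edgeR adjusted p = 0.604), and its groups were separated only by the gap between 22.4 and 22.5 CPM. Without control 2 the log2 fold changes of ATM, ATR and CHEK1 were -0.46, -0.48 and -0.055, also without a call.

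CHEK1 counts came from 2 places. The leading region, in the 3′ UTR at chr11:125525216-125527228, had 60, 18 and 29 counts in the HepG2 controls and 42, 54 and 25 with HME. A region 18595 bases further on, chr11:125545823-125546347, in an exon of another transcript, had 14, 33 and 27 counts in control and 8, 8 and 6 with HME. The leading region thus held 55.2% of the counts of CHEK1 in control and 81.8% in HME-treated HepG2 cells, and 70.3% and 72.3% in Ls174 cells. Counted by that region alone, the log2 fold change of CHEK1 in HepG2 cells was 0.38 (edgeR adjusted p = 0.542), of opposite sign.

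In all, 3 of the 8 members tested in HepG2 cells were lower with HME at the study's thresholds, where 10.9% of all tested genes were lower, and 0 were higher, where 11.3% of all genes were. Without HepG2 control 2, 2 of 8 were lower and 0 higher, where 24.2% of all genes were called in either direction. With all 6 libraries the other shares were as follows. By adjusted p, 1 member was called, against 3.31% of all genes. BRCA1, FANCD2 and CHEK1 were the 3 members whose groups did not overlap, as did 30.8% of all genes. The median log2 fold change of the 8 was -0.68, and that of all tested genes -0.04. Scaling by library size alone moved the median of all genes to -0.20 and the called genes from 1282 higher and 1235 lower to 861 and 1729, and left the count of members called at 3 lower.

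**Figure D1:**
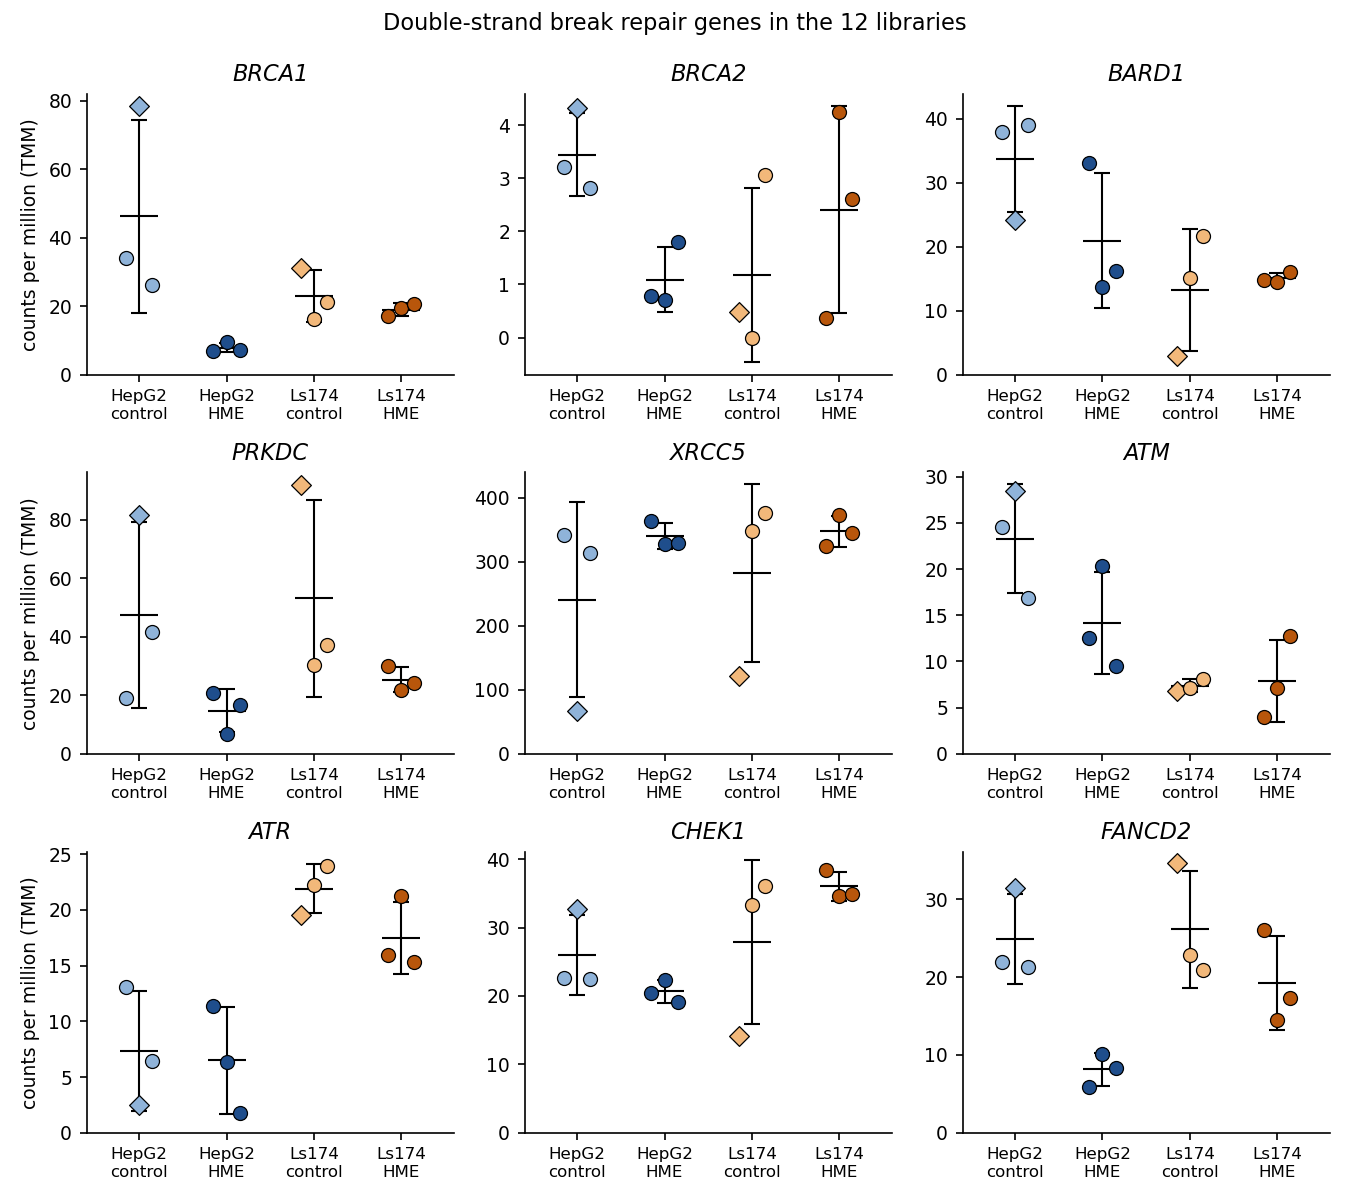
Expression of the 9 genes in the 12 libraries, in TMM-scaled CPM on linear axes of differing height; points are libraries, diamonds the 2 control libraries that stand apart, and bars the mean ± SD of 3. BRCA1 and FANCD2 lie below all controls in HME-treated HepG2 cells, and the diamonds are the highest controls for PRKDC and the lowest for XRCC5.

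In Ls174 cells, PRKDC alone passed the study's thresholds, and BRCA1 and FANCD2 did not. PRKDC had 91.9, 30.3 and 37.2 CPM in the controls and 30.1, 21.9 and 24.2 CPM with HME. The groups were separated only by the gap between 30.1 and 30.3 CPM. The log2 fold change was -1.06 (SE 0.42, edgeR adjusted p = 0.330). Without Ls174 control 1, the control at 91.9 CPM, it was -0.41 (SE 0.21, edgeR adjusted p = 0.265). No member was then called, where 15.6% of all genes were.

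BRCA1 had 31.3, 16.4 and 21.1 CPM in control and 17.04, 19.5 and 20.6 CPM in HME-treated Ls174 cells. The HME values lay within the range of the controls, and the log2 fold change was -0.26 (SE 0.31, edgeR adjusted p = 0.732) with control 1 and 0.02 (SE 0.23, edgeR adjusted p = 0.969) without it. FANCD2 had 34.7, 22.9 and 20.9 CPM in control and 26.1, 14.5 and 17.3 CPM with HME, overlapping groups with a log2 fold change of -0.44 (SE 0.33, edgeR adjusted p = 0.585).

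The other members did not pass the thresholds in Ls174 cells. XRCC5 had 122, 348 and 377 CPM in control and 325, 374 and 345 CPM with HME (0.30, SE 0.37, edgeR adjusted p = 0.750). BARD1 had 2.93, 15.1 and 21.6 CPM in control and 14.9, 14.5 and 16.0 CPM with HME (0.15, SE 0.54, edgeR adjusted p = 0.922). In both genes the low value belonged to control 1. ATM, with 6.85, 7.10 and 8.14 CPM in control and 3.99, 7.07 and 12.7 CPM with HME, had a log2 fold change of 0.10 (SE 0.48, edgeR adjusted p = 0.942). ATR, with 19.6, 22.2 and 23.9 CPM in control and 16.0, 21.2 and 15.4 CPM with HME, had one of -0.33 (SE 0.26, edgeR adjusted p = 0.597). CHEK1 differed by 0.35 (SE 0.33, edgeR adjusted p = 0.668), from 14.2, 33.4 and 36.1 CPM in control to 38.4, 34.7 and 35.0 CPM with HME. Without control 1, which held the lowest value, the log2 fold change of CHEK1 was 0.056 (SE 0.18), and those of XRCC5, BARD1 and FANCD2 were -0.055, -0.28 and -0.17. BRCA2 had 1, 0 and 12 counts in control and 1, 12 and 8 with HME, a spread that allows no comparison.

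Of the 8 members tested in Ls174 cells, 1 was lower at the study's thresholds (7.85% of all tested genes were) and 0 were higher (4.11% of all). None had an adjusted p under 0.05 (1.18% of all 11319 genes), and 1 had an unadjusted p under 0.05. By DESeq2 the count by adjusted p was also 0, and a binomial test on summed counts, which has no term for the spread between replicates, gave 4. The share of all genes that the binomial test called was not counted, so its count cannot be read as particular to the members. The groups of 1 member, PRKDC, did not overlap, as in 23.8% of all genes. The median log2 fold change of the 8 was -0.08.

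**Figure D2:**
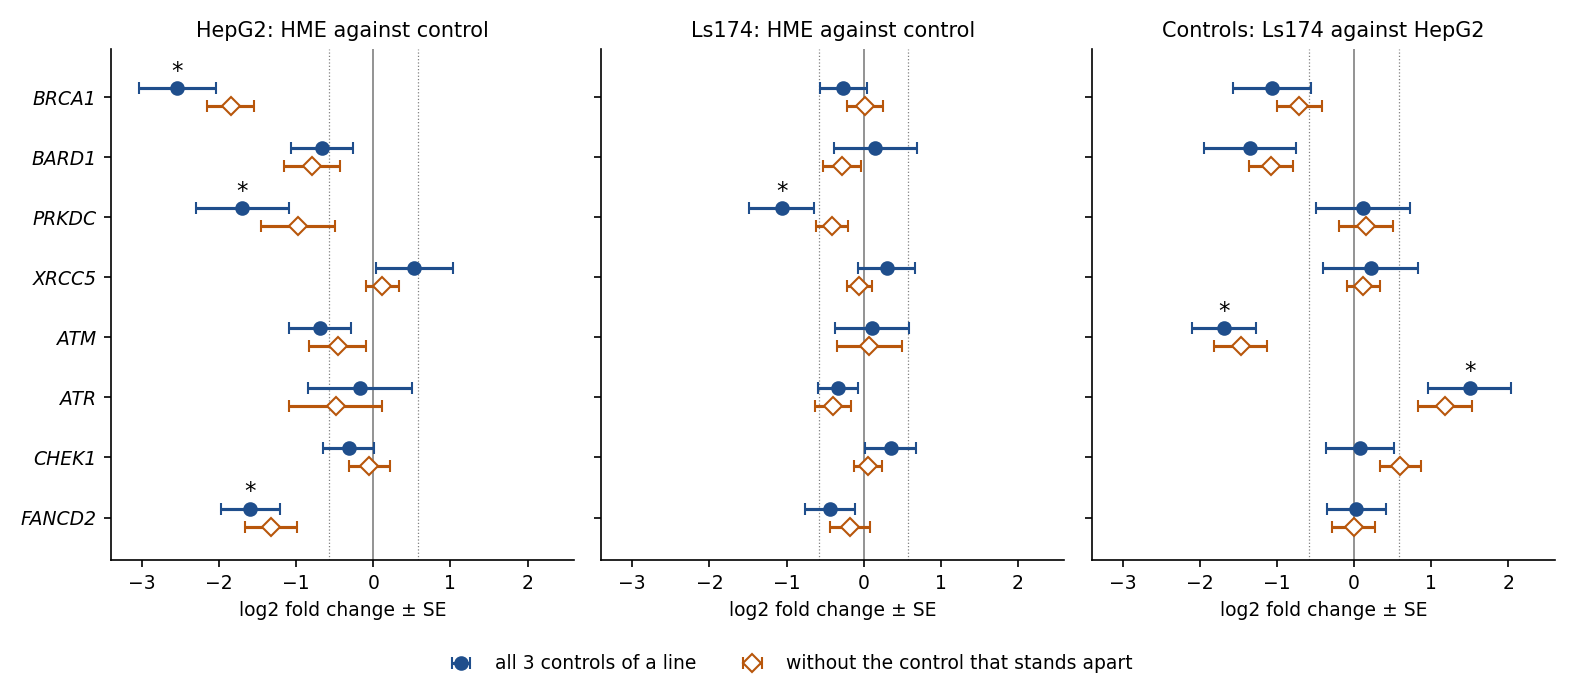
Log2 fold change ± SE of the 8 members that passed the filter on low counts, in HepG2 cells, in Ls174 cells and between the control cells of the lines; filled points use all 3 controls of a line, open diamonds leave out HepG2 control 2 and Ls174 control 1 where they enter, and asterisks mark filled points past the study's thresholds (dotted lines at 0.58). In Ls174 cells only PRKDC is marked, and its open diamond, at -0.41, lies inside the dotted lines.

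Whether the response to HME differed between the lines was tested by the interaction of line and treatment on all 12 libraries. For BRCA1 the HME response in Ls174 minus that in HepG2 was 2.26 on the log2 scale (SE 0.58, edgeR adjusted p = 0.102), and for FANCD2 it was 1.17 (SE 0.50, edgeR adjusted p = 0.327). Both passed the study's thresholds, 2 of 8 members in the positive direction against 5.75% of all 13040 genes tested, and 0 members were called in the negative direction against 7.42%. None had an adjusted p under 0.05 by edgeR, as 0.644% of all genes had, and 1, BRCA1, had one by DESeq2 (0.0257). Without HepG2 control 2 and Ls174 control 1 the difference for BRCA1 was 1.96 (SE 0.37, edgeR adjusted p = 0.0127) and for FANCD2 1.24 (SE 0.43, edgeR adjusted p = 0.136). FANCD2 lost its call when HepG2 control 2 alone was left out (0.99), and also without any of 5 other libraries.

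For PRKDC, lower with HME at the study's thresholds in both lines, the interaction was 0.62 (SE 0.76, edgeR adjusted p = 0.809), which neither shows a difference between the lines nor excludes one. For BARD1 it was 0.84 (SE 0.72), for ATM 0.80 (SE 0.61), for CHEK1 0.67 (SE 0.47), for XRCC5 -0.20 (SE 0.69) and for ATR -0.12 (SE 0.76), none called.

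The control cells of the lines were compared for the level of each member before treatment. ATM was lower in Ls174 cells, at 7.36 ± 0.69 CPM against 23.3 ± 5.89 CPM in HepG2 cells (log2 fold change of Ls174 against HepG2 -1.69, SE 0.41, edgeR adjusted p = 0.0162). ATR was higher in Ls174 cells at the study's thresholds, at 21.9 ± 2.20 CPM against 7.33 ± 5.36 CPM (1.50, SE 0.54, edgeR adjusted p = 0.0788). In both kinases the 3 controls of a line lay apart from those of the other line. Leaving out 1 library at a time raised the adjusted p of ATM up to 0.0729 (edgeR), with its call at the study's thresholds kept. ATR lost its call in 3 of 6 such fits (highest edgeR adjusted p 0.213). BARD1 had 13.2 ± 9.49 CPM in Ls174 and 33.7 ± 8.29 CPM in HepG2 controls, also without overlap, and just missed the thresholds (-1.35, SE 0.60, edgeR adjusted p = 0.146).

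The levels of the remaining genes did not pass in this comparison. BRCA1 differed by -1.06 (SE 0.50, edgeR adjusted p = 0.167), XRCC5 by 0.21 (SE 0.62), PRKDC by 0.11 (SE 0.61), CHEK1 by 0.08 (SE 0.44) and FANCD2 by 0.03 (SE 0.38). Of 8 members, 1 was higher in Ls174 cells (15.4% of 11907 genes) and 1 lower (19.5%), 1 had an adjusted p under 0.05 (23.5%), and 3 did not overlap (42.7%). Without the 2 controls that stand apart, 5 of 9 members were called, where 49.7% of all genes were: ATM (-1.47), BARD1 (-1.08) and BRCA1 (-0.71) lower and ATR (1.18) and CHEK1 (0.60) higher in Ls174 cells, the first 2 and ATR also by adjusted p (edgeR, 0.00409, 0.00835 and 0.0171). The 9 include BRCA2, which passed the filter on low counts in that fit and was not called.

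Ordered by mean, BRCA1 was highest in HepG2 controls (46.3 ± 28.2 CPM), then in Ls174 controls (22.9 ± 7.63), HME-treated Ls174 cells (19.0 ± 1.81) and HME-treated HepG2 cells (7.90 ± 1.35). The first 3 of these overlap with their neighbours in the order, and the last lies apart, with a highest library of 9.45 CPM against a lowest of 17.04 CPM. PRKDC was ordered as Ls174 control (53.1 ± 33.8), HepG2 control (47.4 ± 31.7), Ls174 HME (25.4 ± 4.21) and HepG2 HME (14.7 ± 7.31), where control 1 of HepG2 lay below every Ls174 HME library and the last 2 groups did not overlap. FANCD2 was ordered as Ls174 control (26.1 ± 7.49), HepG2 control (24.9 ± 5.74), Ls174 HME (19.3 ± 6.05) and HepG2 HME (8.14 ± 2.13), with the last group again apart. HME-treated cells of the 2 lines were not tested against each other.

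In the control library of each line that stood apart, PRKDC and BRCA1 were high and XRCC5 was low. HepG2 control 2 correlated with its group at a mean r of 0.870 and the other HepG2 controls at 0.914, and Ls174 control 1 at 0.879 and the others at 0.926 and 0.929. On a log2 scale, PRKDC was higher by 1.51 in HepG2 control 2 and by 1.44 in Ls174 control 1 than in the other controls of the line. XRCC5 differed by -2.30 and -1.56 in the same libraries. BRCA1 was higher there by 1.37 and 0.73 and FANCD2 by 0.53 and 0.65, while CHEK1 differed by 0.52 and -1.25 and BARD1 by -0.66 and -2.36. The 5th and 95th percentiles of the same difference over all tested genes were -2.10 and 1.65 in HepG2 and -2.60 and 1.45 in Ls174 cells, so that PRKDC lay near the upper edge in both lines and XRCC5 outside the lower edge in HepG2. The leading region of CHEK1 showed the same pattern, with 18 counts against 33 in the more distant region in HepG2 control 2 and 8 against 21 in Ls174 control 1, while it had the larger count in the other 10 libraries. What sets these libraries apart was not tested.

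**Figure D3:**
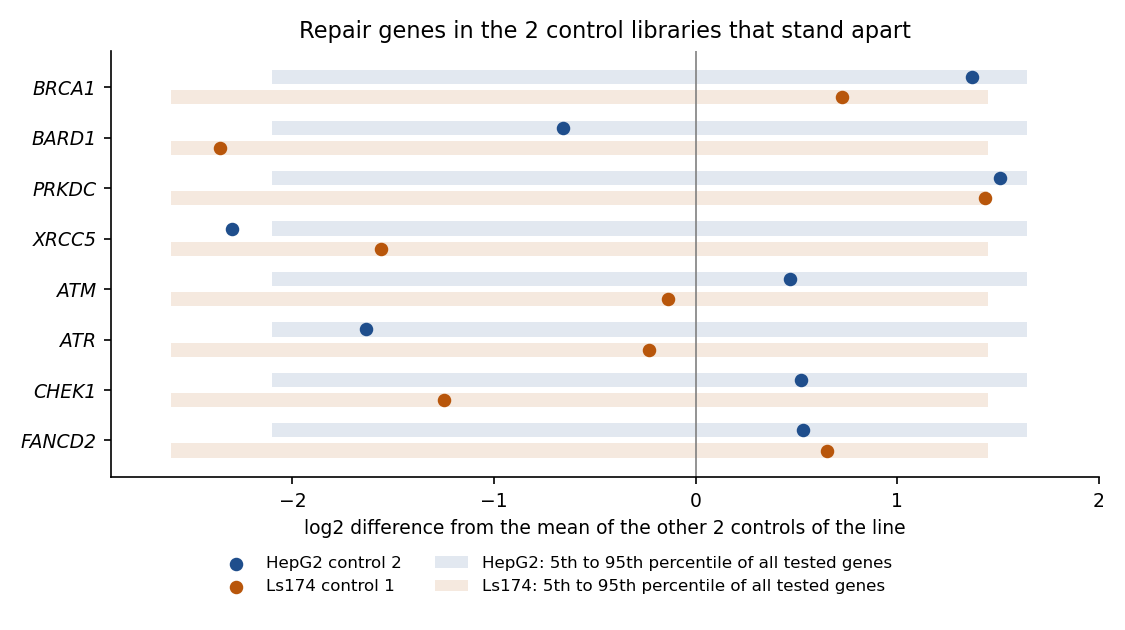
Difference in log2 CPM between the control library that stands apart and the mean of the other 2 controls of its line for 8 members; bars span the 5th to 95th percentile of all tested genes of that line. PRKDC lies at 1.51 and 1.44 and XRCC5 at -2.30 and -1.56, on opposite sides of 0 in both lines.

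Across the 12 libraries, after subtracting the mean of each line, BRCA1 and FANCD2 varied most alike among the 8 members (Pearson r = 0.90), and PRKDC and XRCC5 most oppositely (r = -0.79). PRKDC and BRCA1 had r = 0.73. The points share lines, treatment and the libraries that stand apart, so these values are descriptions. Of 13039 other genes, the 5 most like BRCA1 were FAM111A, COX11, H6PD, UGT2B11 and RP11-332H18.4 (r from 0.965 to 0.967). For PRKDC they were FLOT2, EIF3G, TBC1D10B, CPSF7 and SCLY (r from 0.953 to 0.981).

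The other genes of the pathway were taken from 5 lists with 87 genes in all, of which 76 were tested in HepG2 and 81 in Ls174 cells. In HepG2 cells 13 were lower and 5 higher with HME at the study's thresholds, against the 10.9% and 11.3% of all genes given above, and the median log2 fold change was -0.40. In Ls174 cells 5 were lower and 2 higher, against 7.85% and 4.11% of all genes, and the median was -0.02. Without HepG2 control 2, 14 of 78 were lower and 5 higher in HepG2 cells, where 24.2% of all genes were called in either direction. Without Ls174 control 1, 4 of 82 were lower and 2 higher in Ls174 cells, where 15.6% of all genes were called. These counts moved more with the HME libraries: without HepG2 HME 3, 5 were lower and 1 higher in HepG2 cells, and without Ls174 HME 1, HME 2 or HME 3, 2, 1 and 3 were lower in Ls174 cells. The count higher in HepG2 cells was 2 without control 1 and 3 without HME 2, and the count higher in Ls174 cells was 0 without HME 1.

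WEE1, the kinase that holds CDK1 inactive and so delays mitosis, was the only gene of these lists with an adjusted p under 0.05 in HepG2 cells. It rose from 32.6, 19.8 and 26.9 CPM in control to 86.6, 74.2 and 79.4 CPM with HME (log2 fold change 1.61, SE 0.30, edgeR adjusted p = 0.0213). In Ls174 cells it had 37.7, 49.1 and 42.0 CPM in control and 35.9, 40.0 and 30.4 CPM with HME, without a call. The interaction for WEE1 was -1.86 (SE 0.37, edgeR adjusted p = 0.0339), and its adjusted p was above 0.05 in 9 of the 12 fits that left out 1 library each (highest 0.144), with library sizes alone (0.0927) and with the replicate block (0.157). The adjusted p of WEE1 in HepG2 cells was above 0.05 in 4 of the 6 fits that left out 1 library each, with a highest value of 0.0955 and log2 fold changes between 1.49 and 1.77.

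The calls in HepG2 cells are given by role, and the lists were not tested against each other. Of all tested genes, 10.9% fell and 11.3% rose, and lists this short cannot show a departure of a role from these shares. Of 21 tested genes of homologous recombination, 5 fell and 0 rose, among them EME1, a subunit of a structure-specific nuclease (-1.54), RMI2 of the BLM complex (-0.91), the helicase BRIP1, which binds BRCA1 (-1.30), and RAD51AP1 (-0.98). Of 10 end joining genes, 3 fell and 0 rose: the polymerase POLL (-1.19), C9orf142, which encodes PAXX (-1.40), and PARP1 (-1.01), listed here for its part in the alternative route. Of 14 checkpoint genes, ETAA1, an activator of ATR (-2.96), TIPIN of the fork protection complex (-1.32) and RAD9A (-1.24) fell, and WEE1 and HUS1 (1.21) rose. RAD9A and HUS1 encode subunits of the same clamp. Of 15 Fanconi anaemia genes, the scaffold SLX4 (-1.96) and C17orf70 (-2.41) fell and WDR48, a partner of the deubiquitinase USP1, rose (1.01). Of 16 genes of end sensing and chromatin signalling, 0 fell, and KAT5 (0.85) and UIMC1 (1.01) rose. Apart from WEE1, none of these had an edgeR adjusted p under 0.05, and the lowest were 0.0531 (ETAA1), 0.0904 (EME1), 0.0935 (SLX4) and 0.112 (RMI2). ETAA1 had 5.34, 7.42 and 8.03 CPM in control and 1.57, 0.70 and 0 CPM with HME, near the floor. Without HepG2 control 2, C9orf142 (-0.95), C17orf70 (-0.63) and RAD9A (-0.87) were not called, and KAT5 (1.12, edgeR adjusted p = 0.0349) and ETAA1 (-2.85, 0.0477) also passed by adjusted p.

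In Ls174 cells the 7 calls were RIF1 (-0.96), RNF168 (-0.73) and H2AFX (-0.93) lower and KAT5 (0.67) and BRE (0.87) higher among the genes of end sensing and chromatin signalling, and GEN1 (-1.66) and RAD9A (-1.47) lower in the other lists. The lowest adjusted p was 0.226 (edgeR, RIF1), and those of RAD9A, KAT5, RNF168 and BRE were 0.288, 0.292, 0.319 and 0.320. Without Ls174 control 1, KAT5 (0.47), H2AFX (-0.57) and GEN1 (-0.67) were not called and RAD9A was at -0.88. KAT5 also lost its call without HME 1, and RAD9A without HME 1 or HME 2. End joining and Fanconi anaemia genes had 0 calls in Ls174 cells, of 12 and 15 tested, where 7.85% of all genes were lower and 4.11% higher.

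Of the 83 listed genes tested for the interaction, 8 were called with a positive difference (BRE, POLL, PARP1, C9orf142, RMI2, EME1, ETAA1 and TIPIN, from 0.75 to 3.12) and 2 with a negative one (WEE1 and RNF168, at -1.36). Over all 13040 genes the shares were 5.75% positive and 7.42% negative, and 0.644% passed by adjusted p. Only WEE1 passed by adjusted p. Those of POLL, ETAA1, RNF168 and TIPIN were 0.142, 0.163, 0.204 and 0.282 (edgeR). Without both controls that stand apart, 16 were positive and 3 negative, where 18.9% of all genes were called in either direction, and the positive count was 3 without HepG2 HME 3, 4 without Ls174 control 3 or Ls174 HME 3, and 5 without HepG2 control 3 or Ls174 control 2.

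Between the controls of the lines, 15 of 82 listed genes were higher and 2 lower in Ls174 cells, with a median of 0.48. Of all 11907 genes, 15.4% were higher and 19.5% lower. The median over all genes was -0.04, and 0.17 where libraries were scaled by their size alone. The count of higher genes was 7 without Ls174 control 2 and 8 without HepG2 control 1 or Ls174 control 3, and the count of lower genes 0 to 4 without 1 library. An adjusted p under 0.05 (edgeR) was found for 4 of the 82, where 23.5% of all genes had one. These 4 were EXO1, the resection nuclease (1.91, adjusted p = 0.0221), TP53BP1, which restrains resection (1.45, 0.0225), RAD54B (2.97, 0.0259) and TIMELESS of the fork protection complex (1.15, 0.0304). Without HepG2 control 3 the adjusted p of all 4 lay between 0.0814 and 0.108, and with the replicate block those of EXO1 (0.0505), TP53BP1 (0.0530) and TIMELESS (0.136) were above 0.05. Each other control, left out alone, also raised at least 1 of the 4 above 0.05, except HepG2 control 2. The other 11 that were higher were H2AFX, PARP1, RMI1, RPA2, MUS81, XRCC3, TTI2, UBE2T, FANCI, FANCG and FANCL, with log2 fold changes from 0.77 to 1.45, and MAD2L2 (-1.09) and BRE (-0.86) were lower. RAD54B and XRCC3 passed the filter on low counts within Ls174 cells and not within HepG2 cells. For these genes the filter itself favoured a higher level in Ls174 cells, so their calls are no separate support for a difference.

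**Figure D4:**
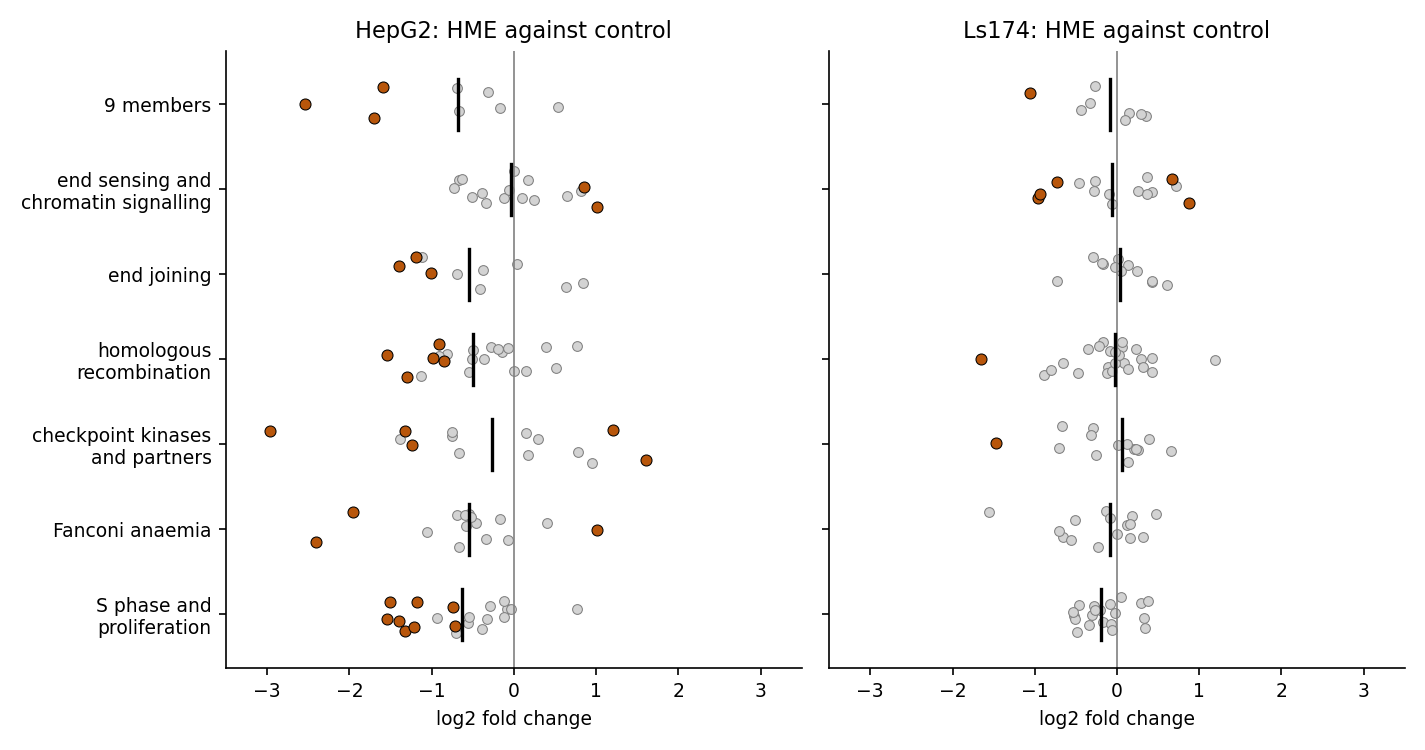
Log2 fold change of HME against control for each tested gene of the 9 members, of 5 repair lists and of a list of S phase genes, in HepG2 (left) and Ls174 cells (right); orange points pass the study's thresholds, black lines are medians and the vertical scatter within a list has no meaning. In HepG2 cells the medians of the members (-0.68), end joining (-0.55), homologous recombination (-0.49), Fanconi anaemia (-0.55) and S phase (-0.63) lie below 0. Those of the checkpoint genes (-0.26) and of end sensing (-0.03) do too, the last near the median of all genes (-0.04). In Ls174 cells the medians lie between -0.19 and 0.07.

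Genes of S phase and proliferation moved beside the repair genes. Of 20, 8 fell and 0 rose in HepG2 cells at the study's thresholds, where 10.9% of all genes fell and 11.3% rose. Their median was -0.63, and the lowest p values belonged to MKI67 (-1.17), MCM4 (-1.32), TYMS (-1.50) and MCM6 (-1.22), none with an edgeR adjusted p under 0.05. Without HepG2 control 2, 9 fell, where 24.2% of all genes were called in either direction. In that fit MCM6 (0.0235) and MKI67 (0.0306) had an edgeR adjusted p under 0.05. The summed level of the 20 genes was 2294 to 2807 CPM in the HepG2 controls and 1548 to 1553 CPM with HME. In Ls174 cells 0 of 20 were called, where 7.85% of all genes were lower and 4.11% higher. The median was -0.19 and the sum was 2528 to 2941 CPM in control and 2401 to 2556 CPM with HME. Without Ls174 control 1, 2 of the 20 were lower at the study's thresholds, where 15.6% of all genes were called in either direction, and 2 had an edgeR adjusted p under 0.05. The part of the cell cycle in the levels of BRCA1 and FANCD2 was not tested.

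The lines matched their labels by most markers. The summed level of 10 liver genes was 16530 to 24834 CPM in HepG2 libraries and 0.31 to 142.02 CPM in Ls174 libraries, with the highest sum in Ls174 control 3, 70.7 CPM in Ls174 HME 1 and at most 11.1 CPM in the other 4. Of 10 colon genes, CDX1, CDX2, TFF3 and OLFM4 were higher in every Ls174 than in every HepG2 library, and KRT20 was at 0 in all Ls174 controls. CEACAM5 and MUC2 were at 0 in HepG2, but MUC2 did not pass the filter on low counts in Ls174 cells either. CEACAM6 passed that filter in neither line and LGR5 in both, so MUC2, CEACAM6, KRT20 and LGR5 do not mark Ls174 cells here. VIL1, with 42.1 to 78.7 CPM in Ls174 libraries, was also present in HepG2 (52.5 to 186 CPM). The 9 mesenchymal and blood genes summed to 1122 CPM in HepG2 HME 2 and at most 180 CPM in the other HepG2 libraries, PTPRC was at 0 in all libraries, and the part of that library's extra transcripts in its low PRKDC value was not tested. The libraries held between 1790841 and 3656662 counts. The floor of 3 counts, which covers counting error only, lies within the range of the counts of BRCA2 in each line.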

How the data were processed

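In all, 12 libraries of 3′ mRNA ends were made with a QuantSeq kit and sequenced on an Ion Proton. The authors aligned the reads to hg19 (GRCh37) with Hisat2 and counted them with metaseqR2, and the deposited values are whole-number counts per 3′ region, not normalized; Bowtie2 and Trimmomatic are also named in the submitters' processing notes. Reads near a gene's end are counted, so a change of polyadenylation site can move a count. For each gene, the counts of its regions were added up. Groups and replicate numbers came from the sample labels, and 0 columns could not be mapped.

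Each comparison was fitted in edgeR 4.0.16 (R 4.3.3, limma 3.58.1) with filterByExpr, TMM and the quasi-likelihood F test, without covariates; each line used its 6 libraries, the interaction all 12 and the comparison of lines the 6 controls. Adjusted p values are Benjamini-Hochberg values over all tested genes, tests are two-sided, and the SE came from the F statistic. The study's thresholds, as given in its methods, were p below 0.05 before adjustment together with a log2 change of more than 0.58 in size. They are applied here to the edgeR p and not to the binomial p of the study, so the calls are not those of the study. Log2 CPM for differences between controls and for correlations used a prior count of 2. Alternatives were DESeq2 1.42.0, a binomial test on summed counts, other scalings, filters, regions, fold limits, samples and a replicate block. The procedure was tested on simulated data. Python 3.11.15 with pandas 2.3.3 and matplotlib 3.10.9 made tables and figures.

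The members, the lists and the rule for named genes were chosen with earlier results of these data known. The rule names the 9 members, all listed repair genes that passed, with adjusted p for those under 0.05 or the 5 lowest, at most 4 S phase genes and the 5 genes most like BRCA1 and PRKDC. COL1A1 was named after its values were seen. PCR, chromatin and protein data were not analysed here, and 1 listed gene is not reported here by name.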

Additional observations from a re-analysis of the deposited data

Results flagged for a closer look

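The HME response of 2 members differed between the lines at the study's thresholds. For BRCA1 the log2 fold change in Ls174 cells was higher than that in HepG2 cells by 2.26, and for FANCD2 by 1.17. Neither difference had an adjusted p under 0.05 (edgeR interaction test, 0.102 and 0.327), and leaving out 1 library at a time gave 1.68 to 2.54 for BRCA1, called each time, and 0.93 to 1.41 for FANCD2, called in 6 of 12 fits.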

How the results depend on the processing

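Of the 3 HepG2 members called, BRCA1 and FANCD2 passed the study's thresholds under all 11 alternatives that kept every library and in all 6 fits without 1 library. Leaving out 1 library at a time gave 2 to 4 members called in HepG2 cells, 0 to 1 in Ls174 cells, 1 to 2 for the interaction and 1 to 4 between the controls. PRKDC lost its call in Ls174 cells without control 1 or any 1 HME library, and the log2 fold change ranged from -1.34 to -0.41. The binomial test gave 5 members in HepG2 cells and 4 between the controls, without a share of all genes to set beside them. One fit of all 12 libraries gave 0 members in Ls174 cells and 4 between the controls, where no filter gave 4, a minimum of 10 counts in every library 1, and leaving out both controls that stand apart, an alternative added after seeing the data, 5. The causes were not tested. Among the 87 other repair genes, leaving out 1 library gave 5 (without HME 3) to 14 (without control 2 or 3) lower in HepG2 cells, 1 (without HME 2) to 7 (without control 3) lower in Ls174 cells, and 7 (without Ls174 control 2) to 17 (without Ls174 control 1) higher in Ls174 than in HepG2 controls. The binomial test was not run for the interaction.

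Members without a call changed sign in a few fits. In HepG2 cells the highest region alone gave 0.38 for CHEK1, and leaving out 1 library gave -0.78 to 0.54 for ATR. In Ls174 cells the binomial test gave -0.059 for BARD1, and leaving out 1 library gave -0.41 to 0.42 for ATM, -0.28 to 0.68 for BARD1, -0.46 to 0.023 for BRCA1 and -0.055 to 0.56 for XRCC5. For the interaction, ATR was at 0.0013 with library sizes alone and 0.17 without both controls, and leaving out 1 library gave -0.81 to 0.54 for ATR and -0.55 to 0.27 for XRCC5. Between the controls, FANCD2 was at -0.02 with the highest region alone and -0.0072 without both controls, and leaving out 1 library gave -0.21 to 0.24 for FANCD2, -0.17 to 0.39 for CHEK1, -0.52 to 0.78 for PRKDC and -0.24 to 0.58 for XRCC5.

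Deviations of same-numbered control and HME libraries from their group means correlated weakly (r from -0.167 to 0.088). With 3 libraries per group these values cannot show whether the numbers pair the samples, and the main fits used no pairing. With the replicate number as a replicate block, 3 members were called in HepG2 cells, 1 in Ls174 cells, 2 for the interaction and 3 between the controls, with ATM at -0.00011 in Ls174 cells and CHEK1 at -0.018 between the controls. By adjusted p, members called in HepG2 cells numbered 1 to 7 under the alternatives that kept every library, the 7 from the binomial test, and 0 to 2 without 1 library. For the binomial test the share of all genes was not counted.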
